A study of Mus musculus with 9 samples.

Results

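The replication-dependent histone genes of mouse skin were followed in bulk RNA-Seq libraries from control and *Supt6*-KO mice. Members were the rows of the deposited table whose gene has a mouse symbol of the H1f, H2ac, H2bc, H3c or H4c series, or an older symbol of the Hist1h to Hist4h series. The rule found 65 of 17943 genes, of which 59 carry such a name as their current symbol and 6 only as an older symbol. They comprised 6 genes for linker histone H1, 17 for H2A, 17 for H2B, 12 for H3 and 13 for H4. *H1f6*, the testis-specific linker histone gene of the cluster, entered by its older symbol.

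The 5 control libraries are labelled wild type, and the study describes these mice as *Supt6* fl/fl animals that received corn oil. The labels call the other group a *Supt6* knockdown, and the study a knockout. These 4 *Supt6*-KO mice carried K14-CreERT together with *Supt6* fl/fl and received tamoxifen during the first telogen phase, so that Cre, driven by the Keratin 14 promoter of basal keratinocytes, acts in the epidermis while the dermis keeps the gene. Both groups carry the floxed alleles, and they differ in the Cre transgene and in tamoxifen. Skin was taken on day 10 after the last injection, the labels name ear and the study names dorsal skin, and the age in weeks is not given in the sources used here. Each library is from a separate numbered mouse, and its estimated counts summed to between 29627341 and 30967107. In whole skin, a change in the number of cells of a type and a change in RNA per cell cannot be told apart.

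Cells make replication-dependent histones in S phase, when newly copied DNA is packed into nucleosomes. Their genes lie in clusters, are short and mostly without introns, and their mRNAs typically end in a conserved stem-loop in place of a poly(A) tail. The stem-loop binding protein, encoded by *Slbp*, and the U7 snRNP, whose ring includes Lsm10 and Lsm11, direct the cut behind that stem-loop. SPT6, the protein encoded by *Supt6*, is a histone chaperone that travels with elongating RNA polymerase II. Variant histones such as H3.3 and H2A.Z are made outside S phase as well, mostly from polyadenylated mRNAs. The library kit is named as an mRNA kit, and whether poly(A) RNA was selected is not given in the sources used here. The counts may therefore not measure all histone mRNA, and the part of this in the results was not tested.

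Of the 65 members, 51 lie on chromosome 13 between positions 21715711 and 23764412 of GRCm38 (mm10), and 10 lie on chromosome 3 between 96219885 and 96270192. *H2aw* and *H2bu2* lie on chromosome 11 and *H4f16* on chromosome 6, and 1 member had no RefSeq position. In the GENCODE annotation 60 members were single-exon genes. A stem-loop with a perfect 6-bp stem and a loop of 4 bases was found within 200 bases past the stop codon of 46 members. Its 16 bases were identical in 26 members, drawn from H1, H2A, H2B and H3, while 7 H4 members shared another form that differs within the stem. The stem-loops of 6 members are shown because they stand for these forms and for genes whose values are given below. They are written as DNA with 5 bases on either side, and capitals mark stem and loop.

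H2ac18: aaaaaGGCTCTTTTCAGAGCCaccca
H1f2: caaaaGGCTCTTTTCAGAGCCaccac
H2aw: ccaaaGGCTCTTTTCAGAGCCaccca
H3c3: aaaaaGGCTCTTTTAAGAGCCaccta
H4c8: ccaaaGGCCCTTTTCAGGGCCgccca
H4c9: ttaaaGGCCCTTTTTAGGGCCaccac

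These stretches lie at chr3:96246027-96246052 for *H2ac18*, chr13:23739507-23739532 for *H1f2* and chr11:58955167-58955192 for *H2aw*. Those of the other members shown are chr13:23745042-23745067 for *H3c3*, chr13:23531453-23531478 for *H4c8* and chr13:22040961-22040986 for *H4c9*. They fall past the stop codon, in the last exon. *H2ac18*, *H1f2* and *H2aw* share 1 form, *H3c3* has another base in its loop, and both H4 genes pair with a different stem. The transcript of *H2ac18* annotated in GENCODE ended 35 bases past the stem-loop and that of *H4c8* 46 bases past it, whereas those of *H1f2*, *H2aw* and *H4c9* went on for 840, 1643 and 330 bases. The RefSeq annotation, used here for gene positions, ends *H1f2* and *H2aw* within or at the stretches shown. It ends *H4c9* at position 22040960, next to its stretch. GENCODE and RefSeq thus differ in where these genes end. For *H2bc4*, the most abundant member, the annotated transcript had 2 exons and 1156 bases with an AATAAA past the stop and no such stem-loop.

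*Supt6* was checked before the histone genes. It was read at 56.6 to 96.7 CPM (counts relative to library size, scaled by the TMM method) in the controls and at 21.9 to 28.6 CPM in the *Supt6*-KO mice. The test used throughout was edgeR's quasi-likelihood test, with p-values adjusted over all genes tested. SE stands for standard error. The *Supt6*-KO level was 33.7% of the control level, with no overlap between the groups (log2 fold change -1.57, SE 0.18, edgeR adjusted p = 1.29e-05). A two-sided exact permutation test on these 9 mice gave p = 0.0159, the smallest value that 5 against 4 mice allow. With fold changes corrected for length it was -0.64, and -0.62 with the replicate number as a block as well, both less than the 2-fold change that calls required. Which exons of *Supt6* the reads came from cannot be seen at the level of genes.

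Histone transcripts were scarce in these libraries, and higher in every *Supt6*-KO mouse. All 65 members together held 0.00869% to 0.0116% of the counts of a control library and 0.0191% to 0.0214% of those of a *Supt6*-KO library. In CPM, the sum over members was 87.7, 87.7, 95.4, 74.1 and 66.1 in the 5 controls and 244, 302, 293.8 and 234.9 in the 4 *Supt6*-KO mice. The *Supt6*-KO mean was 3.27-fold the control mean, and no *Supt6*-KO mouse fell within the control range. A member that was read in at most 3 counts is at the floor of a library, here 0.0764 to 0.144 CPM, a limit that covers counting error only. By that floor, 14 to 20 members were read in a control library and 38 to 56 in a *Supt6*-KO library, as the map of all members in the 9 mice shows.

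**Figure D1:**
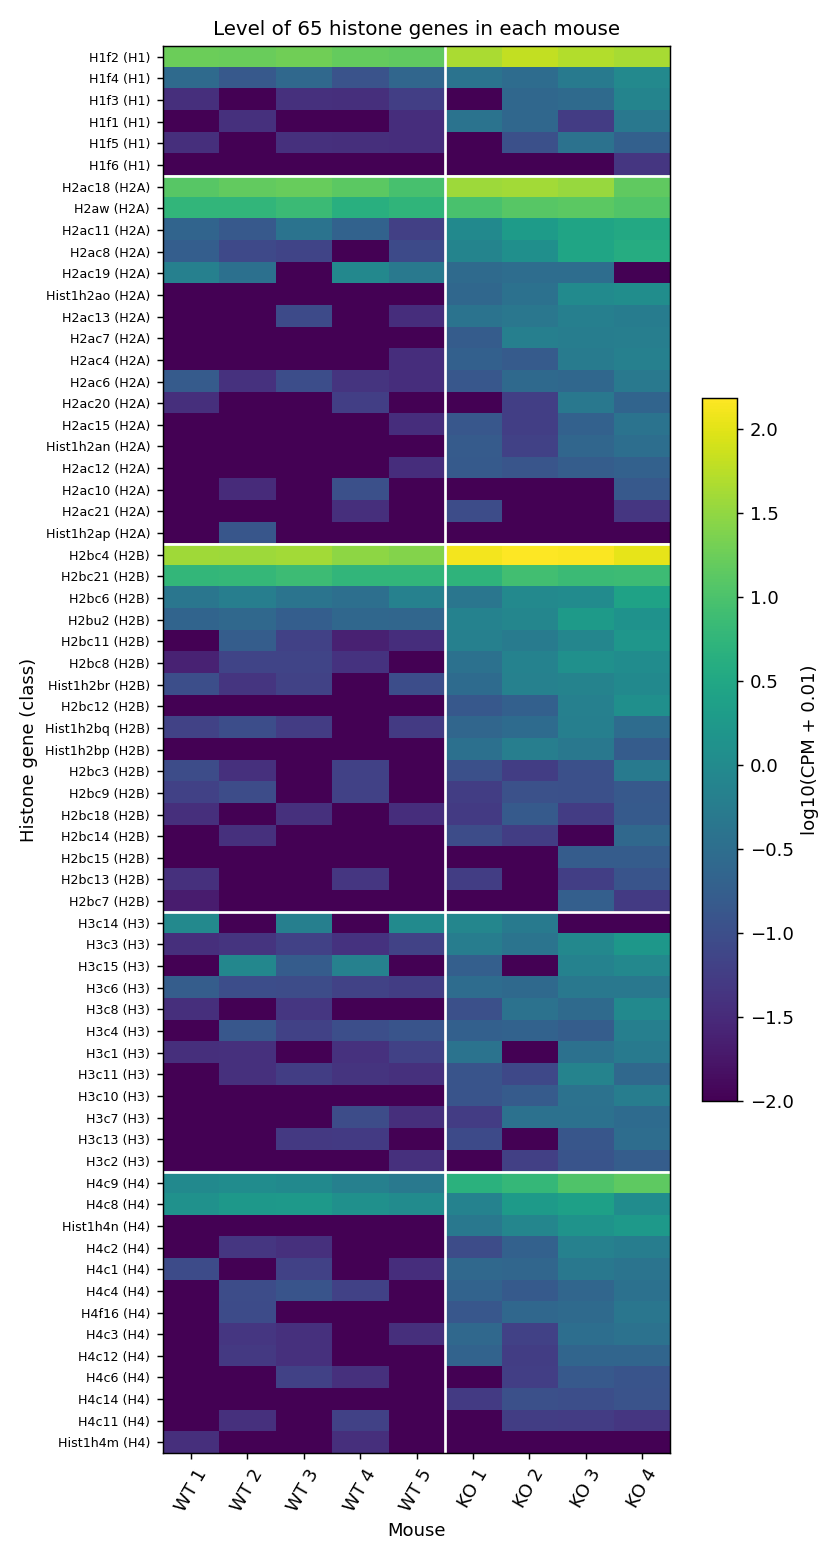
Level of each of the 65 histone genes (rows, grouped by class and ordered by mean) in each mouse (columns), as log10(CPM + 0.01), with WT for the 5 control mice and KO for the 4 Supt6-KO mice. A few rows, such as H2bc4, H1f2 and H2ac18, are bright in all 9 mice, and most others are dark in the controls and brighter in the Supt6-KO mice.

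A few members supplied nearly all of this RNA. The 5 members with a mean of at least 5 CPM over the 9 mice, *H2bc4*, *H1f2*, *H2ac18*, *H2aw* and *H2bc21*, made up 93.0% of the histone reads in CPM in the controls and 87.5% in the *Supt6*-KO mice. Per length, in the TPM, a length-scaled level, that the authors deposited for 6 of the mice, *H2bc4* stood first in the controls with 135.6 ± 14.5 TPM (SD, n = 5). *H2ac18* followed with 89.6 ± 9.52 TPM and *H1f2* with 65.7 ± 4.66 TPM, each apart from its neighbour by more than these spreads. *H2aw* had 47.8 ± 7.10 TPM and *H4c8* 18.3 ± 1.97 TPM, and *H4c9* with 13.6 ± 3.16 TPM overlapped *H4c8*. In the 1 *Supt6*-KO mouse with deposited TPM, mouse 4, the order of the leading genes was *H2bc4* with 217.03 TPM, *H4c9* with 131.67, *H1f2* with 89.9 and *H2ac18* with 51.9. TPM values are not scaled between the groups as the CPM are, and only their order within a mouse is used here.

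*H2bc4* (older name Hist1h2bc), an H2B gene on chromosome 13 from 23684199 to 23692480, led both groups. It was at 39.6, 37.4, 39.7, 29.7 and 26.0 CPM in the controls and at 129.0, 153.8, 147.7 and 106.1 CPM in the *Supt6*-KO mice. The lowest *Supt6*-KO mouse, mouse 4, was still above the highest control. The 5 controls averaged 34.5 ± 6.25 CPM (SD) and the 4 *Supt6*-KO mice 134.1 ± 21.5 CPM (SD), which gave a log2 fold change of 1.96 (SE 0.16, edgeR adjusted p = 1.89e-06). Of the 100-base stretches of its transcript, 25.3% also occurred in another member.

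*H1f2* (Hist1h1c), which encodes linker histone H1.2 and lies on chromosome 13 from 23738807 to 23739531, gave nearly all reads of the H1 class. Its level was 17.6, 16.9, 18.7, 15.7 and 14.6 CPM in the controls and 45.3, 62.4, 49.9 and 44.4 CPM in the *Supt6*-KO mice. The groups were well apart, with a log2 fold change of 1.60 (SE 0.13, edgeR adjusted p = 1.80e-06). *H1f2* held 98.5% of the H1 CPM in the controls and 97.5% in the *Supt6*-KO mice. The other linker genes were rare. *H1f4* was at 0.198 ± 0.0713 CPM against 0.525 ± 0.287 CPM (log2 fold change 1.41, edgeR adjusted p = 0.0111). Its call was lost without *Supt6*-KO mouse 4, with library totals, in the test against a 2-fold change, and with length correction and replicate block together. *H1f3* was read in at most 2 counts per control and in 0, 5, 6 and 21 counts across the *Supt6*-KO group (log2 fold change 3.42). With each mouse left out, the log2 fold change was 0.955 to 1.589 for *H1f4* and 2.475 to 3.837 for *H1f3*.

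Among the H2A genes, *H2ac18* on chromosome 3 carried most of the reads. It was at 12.7, 15.2, 16.5, 13.3 and 9.27 CPM in the controls and at 37.0, 40.8, 34.7 and 14.6 CPM in the *Supt6*-KO mice. *Supt6*-KO mice 1 to 3 were above all controls, and mouse 4 lay within the control range. The log2 fold change was 1.24 (SE 0.27, edgeR adjusted p = 0.00144). The call of *H2ac18* was lost with library totals and in the test against a 2-fold change. It was also lost with length correction, alone or with the replicate block. All 100-base stretches of its neighbour *H2ac19* also occur in *H2ac18*, so reads of the pair cannot be assigned with certainty, and *H2ac19* alone was not called (log2 fold change -1.11, edgeR adjusted p = 0.268). With the reads of the pair summed, a setting added after the values were seen, the log2 fold change was 1.20 (SE 0.26).

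*H2aw*, on chromosome 11, shares no 100-base stretch with another member. It rose from 5.67 ± 0.974 CPM (SD) in the 5 controls to 11.8 ± 1.75 CPM (SD) in the 4 *Supt6*-KO mice, with every *Supt6*-KO mouse above every control (log2 fold change 1.05, SE 0.17, edgeR adjusted p = 0.00019). This is close to the 2-fold limit, and without control mouse 4 or without *Supt6*-KO mouse 3 its value was 0.977 and the gene was not called, nor was it with upper-quartile factors or in the test against a 2-fold change. *H2ac11*, an H2A gene of the chromosome 13 cluster, was at 0.217, 0.135, 0.379, 0.196 and 0.0514 CPM in the controls and at 0.965, 2.00, 2.78 and 3.39 CPM in the *Supt6*-KO mice. These values do not overlap, and the log2 fold change was 3.53 (SE 0.48, edgeR adjusted p = 5.15e-05). *H2ac11* shared 76.2% of its 100-base stretches with other members, so part of its reads may belong to them.

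*H2bc21* did not follow *H2bc4*. This H2B gene of the chromosome 3 cluster was at 5.96, 6.24, 7.36, 5.62 and 5.60 CPM in the controls and at 5.22, 8.44, 7.04 and 7.47 CPM in the *Supt6*-KO mice. The groups overlapped, with a log2 fold change of 0.19 (SE 0.17, edgeR adjusted p = 0.331). *H2bc21* shares no 100-base stretch with another member, and its annotated transcript has 2620 bases and no stem-loop of the form above. *H2bc6*, a further H2B gene, was at 0.488 ± 0.148 CPM in the controls and 1.24 ± 0.914 CPM in the *Supt6*-KO mice, and *Supt6*-KO mouse 1 with 0.425 CPM lay within the control range (log2 fold change 1.36, edgeR adjusted p = 0.0179). Without *Supt6*-KO mouse 4 its log2 fold change was 0.71 and it was not called. Nor was it called with the replicate number as a block, with library totals or in the test against a 2-fold change.

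No H3 gene reached 5 CPM on average. *H3c3* had 1.00, 1.18, 1.99, 1.14 and 2.19 estimated counts in the controls and 13.9, 8.38, 19.8 and 45.03 in the *Supt6*-KO mice. Every control was at or under the floor of 3 counts and every *Supt6*-KO mouse was above it (log2 fold change 4.42, SE 0.52). The H3 genes with the most reads in the controls, *H3c14* and *H3c15* on chromosome 3, share 567 of their 100-base stretches, and their reads alternated between mice. In the controls *H3c14* had 34, 0, 23.03, 0 and 39 counts, and 19.99, 11, 0 and 0 in the *Supt6*-KO mice. *H3c15* was read with 0, 31, 5.57, 25.4 and 0 counts in the controls and with 4.18, 0, 15.3 and 24.4 in the *Supt6*-KO mice. Their sum overlapped between the groups, at 0.688 to 0.993 CPM in the controls and 0.528 to 1.01 CPM in the *Supt6*-KO mice, with a log2 fold change of -0.13 (SE 0.26).

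Among the H4 genes the order changed. *H4c9* was at 0.963, 1.06, 0.969, 0.649 and 0.484 CPM in the controls and at 4.76, 6.04, 10.7 and 14.2 CPM in the *Supt6*-KO mice. Each *Supt6*-KO mouse was above all controls, and mouse 4 was the highest. The log2 fold change was 3.43 (SE 0.36, edgeR adjusted p = 7.38e-06), and 15.1% of its 100-base stretches were shared. *H4c8* was at 1.28, 1.70, 1.80, 1.27 and 1.04 CPM in the controls and at 0.71, 1.87, 2.43 and 1.07 CPM in the *Supt6*-KO mice. These groups overlapped (log2 fold change 0.09, SE 0.34, edgeR adjusted p = 0.821). The share of *H4c9* in the H4 CPM was 34.0% in the controls and 66.6% in the *Supt6*-KO mice.

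**Figure D2:**
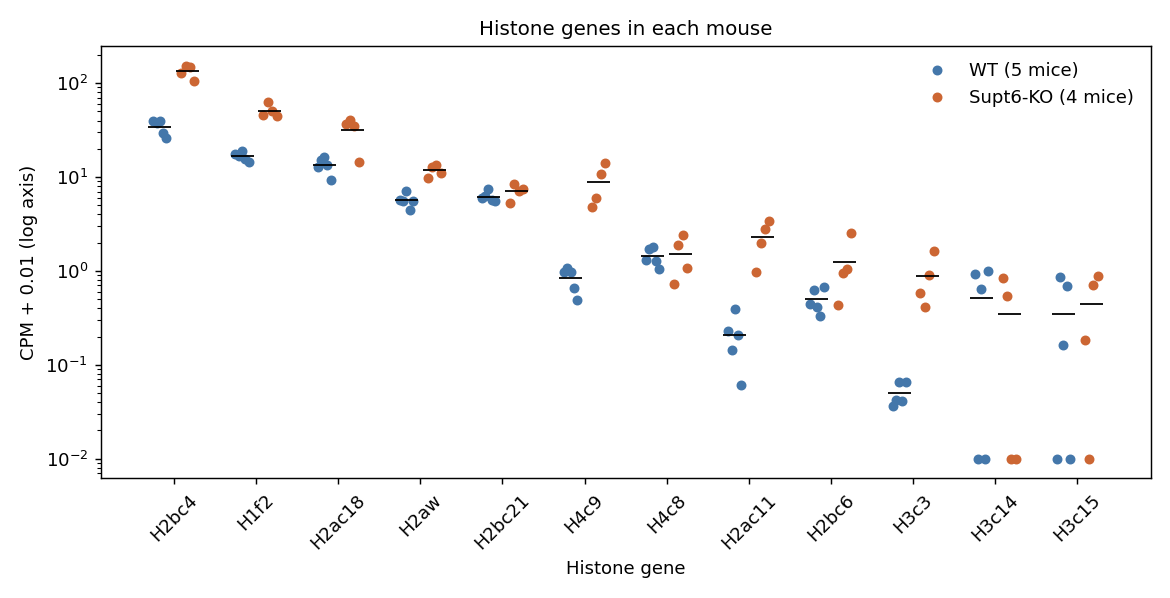
Level of 12 histone genes (x axis) in each mouse as CPM + 0.01 on a log axis, with blue points for the 5 control mice (WT), orange points for the 4 Supt6-KO mice and bars for the group means. The groups are apart for H2bc4, H1f2, H2aw, H4c9, H2ac11 and H3c3, and they overlap for H2ac18, H2bc21, H4c8, H2bc6, H3c14 and H3c15.

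Several members were assigned reads only in the *Supt6*-KO mice. Of the 65, 10 had no count in any control. *Hist1h4n*, the gene with the largest fitted change, had 11, 17, 31.1 and 50.9 counts in the *Supt6*-KO mice and none in the controls, which makes it at least 14.05-fold higher against a floor of 3 counts per control library. *Hist1h2ao* had 5.85, 7.27, 22.2 and 31.2 counts and was at least 8.47-fold higher. *H2bc12* had 3.11, 3.87, 14.6 and 33.7 counts and was at least 6.80-fold higher. These genes entered the test through the *Supt6*-KO counts alone, so no p is given for them. *Supt6*-KO mouse 4 was the highest for all 3 genes and mouse 1 the lowest. The bounds use the mean of the *Supt6*-KO mice, so each would be lower without mouse 4, most so for *H2bc12*. *Hist1h4n* shares 80.7% of its 100-base stretches with other members, *Hist1h2ao* 92.7% and *H2bc12* 70.8%. Such a gene's count can be an allocation among near-identical copies.

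Genes with at least 10 counts over the 9 mice were tested, which kept 54 members, and a gene was called at an adjusted p under 0.05 with at least a 2-fold change. Of the 54, 47 were called higher, where 20.9% of the 16426 genes tested were called higher. None was called lower, where 24.9% of all genes tested were, but 35 of the 54 had under 10 counts over the controls and so little room to fall. At an unadjusted p under 0.05 with the same fold limit, and with DESeq2, the count of lower members was also 0. By class, 5 of 5 tested H1 genes, 13 of 14 H2A, 12 of 14 H2B, 9 of 11 H3 and 8 of 10 H4 genes were called higher. Of all members, tested or not, 55 share 100-base stretches with another member, and 24 share over 50% of theirs. Reads can be split among such copies, so the called members are not all separate observations. Without *Supt6*-KO mouse 4, 38 were called higher, beside 20.4% of all genes, and *H1f4*, *H2ac6*, *H2ac15*, *H2bc3*, *H2bc6*, *H2bc14*, *H2bc18*, *H3c4* and *H3c13* were no longer among them. The tested members not called with all mice were *H2ac19*, *H2bc9*, *H2bc21*, *H3c14*, *H3c15*, *H4c6* and *H4c8*.

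The filter bears on this count. Of the 54 tested members, 35 had under 10 counts over the 5 controls, so that they could pass only with counts from the *Supt6*-KO mice, and the filter favoured those that were higher there. The median log2 fold change of the tested members was 3.40, or 2.82 with genes unread in the controls set at their bound, beside -0.07 for all genes tested. By control level alone, 6 members had a control mean of at least 1 CPM. Of these, *H2bc4*, *H1f2*, *H2ac18* and *H2aw* were called higher and *H2bc21* and *H4c8* were not, and 19.7% of the other genes at that control level were called higher. Without any filter, 50 of the 65 were called higher, beside 19.4% of all genes. In 37 of the 65 members every *Supt6*-KO mouse was above every control, and 36 of these were among the 54 tested, where 28.9% of all genes tested lay so. No member had every *Supt6*-KO mouse below every control, where 31.8% of all genes tested did. The limit from stretches shared among members holds for these counts too. The untested members were *H1f6*, *H2ac10*, *Hist1h2ap*, *H2ac21*, *H2bc7*, *H2bc13*, *H2bc15*, *H3c2*, *H4c11*, *Hist1h4m* and *H4c14*, each with fewer than 10 counts in all.

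**Figure D3:**
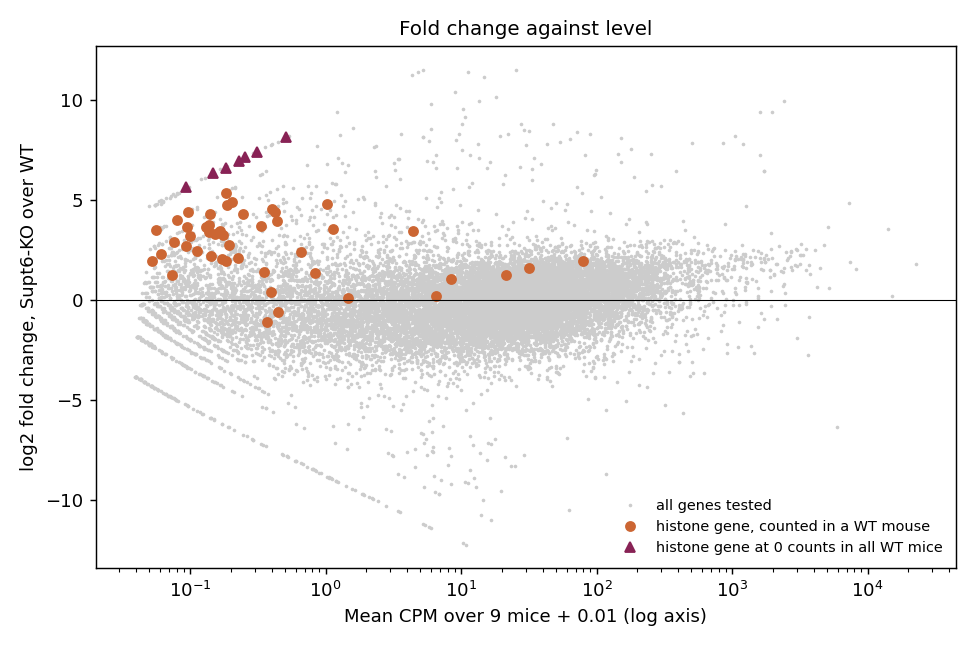
Log2 fold change of Supt6-KO over control (y axis) against the mean CPM over the 9 mice + 0.01 (x axis, log scale), with grey points for the 16426 genes tested, orange points for histone genes read in at least 1 control mouse and purple triangles for histone genes with no count in the 5 control mice. Most histone genes lie above 0 at a mean below 1 CPM, and the fitted values of the triangles depend on the model's prior count.

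Relative to the rest of the transcriptome, the histone sums moved against a background in which the scaling mattered. The TMM factors were 1.20 to 1.31 in the controls and 0.674 to 0.91 in the *Supt6*-KO mice. With plain library totals the median of all genes was -0.76, and 34 of the 54 members were called higher and none lower, beside 8.94% and 41.4% of all genes in that fit. *H2bc4* then had a log2 fold change of 1.25 and was called. *H1f2* had 0.88, *H2ac18* 0.51 and *H2aw* 0.35, and these 3 genes were no longer called. *H2bc21* had -0.50, so the direction of *H2bc21* turned, as did that of *H4c8* with -0.64. In estimated counts before scaling, *H2bc21* had 208 to 266 in the controls and 125 to 208 in the *Supt6*-KO mice.

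The 5 classes were all higher in the *Supt6*-KO mice, without overlap between the groups. The H2B sum was 41.7 ± 6.80 CPM (SD, n = 5) in the controls and 148.0 ± 20.6 CPM (SD, n = 4) in the *Supt6*-KO mice, a ratio of 3.55. The H2A sum was 19.98 ± 3.22 CPM against 51.4 ± 9.93 CPM, a ratio of 2.57. The H1 sum was 16.96 ± 1.64 CPM against 51.8 ± 7.97 CPM, a ratio of 3.05. The H4 sum was 2.43 ± 0.646 CPM against 13.4 ± 5.94 CPM, a ratio of 5.52, and the H3 sum was 1.16 ± 0.112 CPM against 4.12 ± 1.93 CPM, a ratio of 3.55. These sums are not corrected for length. No test is given for these sums, since their members were known when they were chosen.

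The rare members varied more among *Supt6*-KO mice than the abundant ones. The 60 members with a mean under 5 CPM summed to 6.07, 6.45, 5.91, 5.33 and 5.08 CPM in the controls and to 17.8, 23.8, 40.9 and 51.3 CPM in the *Supt6*-KO mice. Their sum was highest in *Supt6*-KO mouse 4 and lowest in mouse 1, with a coefficient of variation of 46.1% in that group and 9.68% in the controls. The 5 abundant members summed to 61.0 to 89.4 CPM in the controls and to 226.2, 278.2, 252.9 and 183.6 CPM in the *Supt6*-KO mice. Here mouse 4 was the lowest of its group, and the coefficient of variation was 17.2%. Of the 63 members with any count in a *Supt6*-KO mouse, 37 were highest in mouse 4, 15 in mouse 3, 9 in mouse 2 and 2 in mouse 1. Without mouse 4, 38 members were called higher and none lower, beside 20.4% and 25.7% of all genes in that fit.

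Most proliferation genes had the same mouse at the top. Among the *Supt6*-KO mice, mouse 4 was the highest for 29 of 31 S phase genes and for all 15 mitosis genes. *Mki67*, a marker of cycling cells, was at 28.5, 14.8, 23.3, 32.1 and 49.3 CPM in the controls and at 19.01, 27.1, 37.3 and 80.9 CPM in the *Supt6*-KO mice. The groups overlapped (log2 fold change 0.47, edgeR adjusted p = 0.318). *Rrm2*, a subunit of ribonucleotide reductase, was at 20.7 to 25.9 CPM in the controls and at 42.5, 43.6, 59.6 and 154.2 CPM in the 4 *Supt6*-KO animals (log2 fold change 1.70, SE 0.34, edgeR adjusted p = 0.000816). The coefficient of variation of *Rrm2* was 8.79% in the controls and 71.3% in the *Supt6*-KO mice, and that of *Pcna* was 8.92% and 34.3%.

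Of the 31 genes for S phase and DNA replication, 12 (38.7%) were called higher and none lower by edgeR, beside 20.9% and 24.9% of all genes tested, nor was any lower at the unadjusted p with the same fold limit or with DESeq2. Their median log2 fold change was 0.65, beside -0.07 for all genes tested. *Ccne1*, which encodes cyclin E1 of the G1/S transition, rose most, from 2.75 ± 0.60 CPM to 19.3 ± 13.1 CPM (SD over 5 and 4 mice), with a log2 fold change of 2.81 (edgeR adjusted p = 3.53e-05). *Pcna*, the sliding clamp of DNA polymerases, was at 124.0 ± 11.1 CPM against 200.4 ± 68.6 CPM and was not called because its log2 fold change was 0.69 (edgeR adjusted p = 0.00668). *Pole*, the catalytic subunit of DNA polymerase epsilon, had the lowest value, -0.995, and was not called (edgeR adjusted p = 0.0203). It lay at the fold limit, at -1.38 to -0.74 with each mouse left out, and was called lower without *Supt6*-KO mouse 4, without control mouse 1, 2 or 3, and under 5 other settings, library totals among them. With library totals the median of this list was -0.02, with 7 genes called higher and 4 lower, beside 8.94% and 41.4% of all genes in that fit. Without *Supt6*-KO mouse 4 it was 0.19.

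Of the 15 mitosis genes, 9 were called higher and none lower, beside 20.9% and 24.9% of all genes tested, with a median log2 fold change of 1.82. None was lower at the unadjusted p with the same fold limit or with DESeq2. *Birc5*, which encodes survivin, rose most (log2 fold change 2.98, SE 0.35, edgeR adjusted p = 1.79e-05), and it was at 30.3, 36.2, 59.1 and 120.9 CPM in the *Supt6*-KO mice and 6.90 to 8.73 CPM in the controls. *Top2a* was at 41.1 ± 11.3 CPM against 61.2 ± 50.8 CPM and was not called (edgeR adjusted p = 0.233). Summed over the list, *Supt6*-KO mouse 4 had 1245 CPM and the other *Supt6*-KO mice 252.0, 263.5 and 441.9 CPM. Without mouse 4 the median of the list was 0.92.

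Genes that act on histone transcription and histone mRNA ends were called higher about as often as all genes tested. Of 19 genes for transcription factors of histone genes, 3′ end processing and histone mRNA turnover, 4 (21.1%) were called higher and 2 (10.5%) lower, beside 20.9% and 24.9% of all genes tested, and the median log2 fold change was 0.46. *Slbp* was at 32.2 to 36.8 CPM in the controls and at 54.3, 61.3, 64.1 and 86.9 CPM in the *Supt6*-KO mice, with no overlap. Its log2 fold change of 0.93 (SE 0.14, edgeR adjusted p = 8.76e-05) was under the 2-fold limit. *Lsm10* of the U7 snRNP was called higher (10.1 ± 2.28 against 24.8 ± 6.10 CPM, log2 fold change 1.29, edgeR adjusted p = 0.0002). Its partner *Lsm11* was not called (17.9 ± 2.18 against 15.1 ± 2.37 CPM, edgeR adjusted p = 0.167).

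*Zfp473*, another U7-associated factor, had the largest value of the list with 1.56 (edgeR adjusted p = 0.0122) at a low level of 0.317 ± 0.118 CPM in the controls and 0.934 ± 0.639 CPM in the *Supt6*-KO mice. The groups overlapped, and without *Supt6*-KO mouse 4 its value was 1.09 and it was not called, which left 3 genes of the list called higher. *Ncbp2*, a cap-binding subunit, and *Mblac1*, a nuclease for histone pre-mRNA, were the other genes called higher. *Sympk*, which encodes the scaffold symplekin of the cleavage complex, was called lower. It was at 45.8, 38.1, 39.1, 49.4 and 49.9 CPM in the controls and at 13.1, 7.20, 10.2 and 25.6 CPM in the *Supt6*-KO mice, without overlap (log2 fold change -1.66, SE 0.31, edgeR adjusted p = 0.000482). *Pou2f1*, which encodes the octamer-binding factor Oct-1, was also called lower (17.03 ± 3.76 against 6.36 ± 1.11 CPM, log2 fold change -1.42, edgeR adjusted p = 6.24e-05).

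Other genes of the list stayed under the limits. *Npat*, whose protein activates histone genes at histone locus bodies, was at 19.97 ± 1.98 CPM against 23.7 ± 2.25 CPM (log2 fold change 0.25, edgeR adjusted p = 0.0865). *Casp8ap2*, which encodes the locus body protein FLASH, was at 17.5 ± 1.97 against 14.9 ± 0.851 CPM (log2 fold change -0.24, edgeR adjusted p = 0.109). *Cpsf3*, the endonuclease of the cleavage complex, was at 42.4 ± 3.17 against 30.4 ± 8.92 CPM (log2 fold change -0.48, edgeR adjusted p = 0.0242). *Eri1*, an exonuclease that trims histone mRNA ends, was at 33.8 ± 3.71 against 59.4 ± 15.1 CPM (log2 fold change 0.81, edgeR adjusted p = 0.000761). With library totals the median of this list was -0.21 and none of its genes was called higher, beside 8.94% of all genes in that fit.

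Variant histones replace the replication-dependent kinds in some nucleosomes. Of 11 variant genes, 6 (54.5%) were called higher and 1 (9.09%) lower, beside 20.9% and 24.9% of all genes tested, with a median log2 fold change of 1.13. With library totals the median was 0.435, with 5 genes called higher and 2 lower, beside 8.94% and 41.4% of all genes in that fit. *H3f3a*, which encodes H3.3, was at 691, 875, 939.8, 597.8 and 571 CPM in the controls and at 2651, 3436, 3262 and 1688 CPM in the *Supt6*-KO mice. All *Supt6*-KO mice were above all controls (log2 fold change 1.91, SE 0.24, edgeR adjusted p = 3.12e-05). The second H3.3 gene, *H3f3b*, rose from 754 ± 119 to 1650.0 ± 132 CPM (log2 fold change 1.13, edgeR adjusted p = 6.72e-05). *H2az1*, the main H2A.Z gene, rose from 200.4 ± 42.5 to 826 ± 180.4 CPM (log2 fold change 2.04, edgeR adjusted p = 4.92e-06). In deposited TPM, the level of *H3f3a* in the controls was 1501 ± 182 and that of *H2bc4*, the first replication-dependent gene, was 135.6 ± 14.5.

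*H2ax*, whose product is phosphorylated at DNA breaks, rose from 14.1 ± 1.25 to 47.6 ± 25.9 CPM (log2 fold change 1.75, edgeR adjusted p = 0.000143). *Cenpa*, the H3 variant of centromeres, had the largest change of the list and was at 6.37 to 8.91 CPM in the controls and at 43.3, 68.3, 111.4 and 152.2 CPM in the 4 *Supt6*-KO animals (log2 fold change 3.68, SE 0.31, edgeR adjusted p = 2.22e-06). *Supt6*-KO mouse 4 was the highest here too. The linker variant *H1f0*, a gene of differentiated cells, was at 242.0 ± 32.0 against 441 ± 79.7 CPM and stayed under the fold limit (log2 fold change 0.87, edgeR adjusted p = 0.000441). The linker variant *H1f10* was called lower, from 4.24 ± 0.427 to 1.20 ± 0.264 CPM (log2 fold change -1.82, SE 0.20, edgeR adjusted p = 1.13e-05).

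Of 20 histone chaperone genes, 4 were called higher and 3 lower, with a median log2 fold change of 0.01. Neither share, 20% and 15%, was above that of all genes tested, 20.9% and 24.9%. *Asf1a*, a chaperone of H3 and H4, had the largest rise, from 22.9 ± 4.24 to 69.8 ± 10.6 CPM (log2 fold change 1.61, edgeR adjusted p = 4.67e-06), and *Supt6* itself had the largest fall. With library totals none of these genes was called higher and 6 were called lower, beside 8.94% and 41.4% of all genes in that fit.

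Transcript ends annotated in GENCODE differed among the members, and the sums of each kind were higher in the *Supt6*-KO mice. The grouping depends on that annotation. In GENCODE, 23 members go on for more than 100 bases past the stem-loop. RefSeq positions end all of these but *H2bc6* and *H3c6* within the stem-loop stretch or a few bases past it. The grouping is thus mostly not seen in RefSeq. The 23 members whose annotated transcript ended within 100 bases past the stem-loop summed to 15.1, 17.8, 18.9, 15.9 and 11.04 CPM in the controls and to 42.5, 49.4, 48.9 and 31.2 CPM in the *Supt6*-KO mice. The 23 members whose transcript went on for more than 100 bases summed to 26.8, 26.1, 29.0, 22.6 and 23.1 CPM and to 64.98, 87.9, 85.5 and 84.9 CPM. The ratio of means was 2.73 for the first group, of which *H2ac18* made up 85.1% in the controls, and 3.17 for the second, of which *H1f2* made up 65.5%. The 8 members with no stem-loop of this form in an annotated 3′ end, *H2bc4* and *H2bc21* among them, had a ratio of 3.50. The 11 members annotated only to the stop codon summed to at most 0.209 CPM in a control and to 1.06 to 2.98 CPM in the *Supt6*-KO mice.

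Fold changes varied with transcript length over all genes, and most histone genes are short and have a single exon. Among genes outside the family, those with transcripts of up to 600 bases had a median log2 fold change of 0.72 over 630 genes and those of over 600 and up to 1000 bases 0.55 over 2290 genes. The median fell to -0.98 for the 1501 genes with transcripts over 5000 bases. Single-exon genes outside the family went the other way, with a median of -0.55 over 456 genes. The 110 of these with up to 1000 bases had a median of -6.14, and 60.9% of them were called lower and 19.1% higher. With fold changes corrected for length, *H2bc4* had 1.49, *H1f2* 1.35, *H4c9* 2.91 and *H2ac18* 0.63, and *H2ac18* was then no longer called.

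Most members share promoter elements that the rule did not use. RefSeq promoters (GRCm38.p6, 250 bases before to 50 after the start) were at hand for 59 members. CCAAT, searched on both strands, stood in 50 of the 59 promoters, or 84.7%, and in 41.1% of all 27025 promoters. It was present in all 6 H1, 16 H2A, 15 H2B and 10 H3 promoters and in 3 of 12 H4 promoters. TATAAA stood in 55.9% of the members' promoters and in 15.7% of all. The octamer ATTTGCAT, bound by octamer factors, stood in 20.3% against 1.97%, and the 12 members with it were 6 H2A and 6 H2B genes. CACGTG, also searched, stood in none of the 59 promoters and in 8.09% of all. H2A and H2B genes that lie head to head have promoters that partly cover the same DNA. A motif in the shared part can be counted for both genes of a pair. The H2A and H2B counts, and the percentages of members, are therefore not counts of separate promoters. A match shows only that these letters are there.

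Many H2A and H2B genes lie head to head, and 11 such pairs had their starts within 400 bases of each other on opposite strands, 176 to 302 bases apart. In 4 of them 1 gene had too few counts to be tested. Of the 7 pairs with both genes tested, both were called higher in 6, and the other pair holds *H2bc21*. Singly, 47 of the 54 tested members were called higher, beside 20.9% of all genes tested. Both counts carry the limits of the filter and of shared stretches given above. *Hist1h2an*, *Hist1h2bp*, *Hist1h2ao* and *H2bc12* of these pairs had no count in the controls and were tested through the *Supt6*-KO counts alone. The pair count therefore does not show whether paired genes change together. The promoter of *H2ac6*, at chr13:23683910-23684209 on the minus strand, is shown because it lies between *H2ac6* and *H2bc4*, the most abundant member. Capitals mark the 3 motifs above on either strand, and all are present in it. The promoters of *H1f2*, at chr13:23738557-23738856 on the plus strand, and *H4c9*, at chr13:22041313-22041612 on the minus strand, are shown beside it. The *H1f2* promoter holds CCAAT alone, and the *H4c9* promoter holds TATAAA alone.

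H2ac6: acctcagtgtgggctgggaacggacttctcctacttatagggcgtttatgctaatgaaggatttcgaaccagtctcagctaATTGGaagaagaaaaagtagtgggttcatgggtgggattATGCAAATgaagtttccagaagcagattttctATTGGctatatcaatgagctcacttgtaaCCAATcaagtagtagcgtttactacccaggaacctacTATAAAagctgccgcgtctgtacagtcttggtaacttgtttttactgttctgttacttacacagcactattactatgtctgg
H1f2: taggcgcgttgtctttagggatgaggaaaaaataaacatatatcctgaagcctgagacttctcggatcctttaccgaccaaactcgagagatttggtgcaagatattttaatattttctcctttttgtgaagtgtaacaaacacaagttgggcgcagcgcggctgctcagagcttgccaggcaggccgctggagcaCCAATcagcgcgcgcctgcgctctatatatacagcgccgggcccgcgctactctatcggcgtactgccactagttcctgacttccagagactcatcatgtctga
H4c9: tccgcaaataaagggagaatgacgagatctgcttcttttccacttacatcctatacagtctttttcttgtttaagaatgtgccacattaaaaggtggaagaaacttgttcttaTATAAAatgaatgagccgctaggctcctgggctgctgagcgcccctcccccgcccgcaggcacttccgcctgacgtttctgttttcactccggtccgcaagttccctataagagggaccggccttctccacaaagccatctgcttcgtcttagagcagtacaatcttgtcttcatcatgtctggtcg

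The genes on either side of the first of these promoters differed in level. *H2ac6* was at 0.0657 ± 0.0544 CPM in the controls and 0.279 ± 0.15 CPM in the *Supt6*-KO mice. *H2ac6* was called higher (log2 fold change 2.05, SE 0.62, edgeR adjusted p = 0.0112), although *Supt6*-KO and control mice overlapped. The call was lost without *Supt6*-KO mouse 4, with library totals and in the test against a 2-fold change. It was also lost with the replicate number as a block, alone or with the length correction. Per length, the controls had 0.616 ± 0.524 TPM of *H2ac6* and 135.6 ± 14.5 TPM of *H2bc4*.

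Markers of skin cell types also differed between the groups, and their part in the histone results was not tested. Over all genes tested, 20.9% were called higher and 24.9% lower. Of 6 basal keratinocyte genes, where K14-CreERT acts, 3 were called lower and none higher, and they summed to 11550 to 13170 CPM in the controls and to 8384, 5790, 7001 and 14080 CPM in the *Supt6*-KO mice. Their most abundant gene, here as below by the mean over the 9 mice, was *Krt14*. Of 6 suprabasal keratinocyte genes 3 were called higher, led in level by *Krt10*, and they summed to 20090 to 21930 CPM against 42690, 41060, 40200 and 20560 CPM. By these sums *Supt6*-KO mouse 4 lay within the control range for suprabasal genes and above it for basal genes. Among the *Supt6*-KO mice it was the highest for *Krt14*, *Krt5* and *Itga6* and the lowest for *Krt15* and *Col17a1*, with *Trp63* in between. Markers of both keratinocyte layers were abundant in all 9 mice.

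The hair matrix holds rapidly dividing cells, and all 7 of its marker genes read were called lower. They summed to 1479, 150.4, 530.8, 313.0 and 23.5 CPM in the controls and to 3.77 to 5.51 CPM in the *Supt6*-KO mice, with *Krt71* the most abundant. Of 5 macrophage genes 3 were called higher and 1 lower, with sums of 131.0 to 256.4 CPM and 555.3 to 1032 CPM, mostly *Lyz2*. Of 7 tested neutrophil genes 5 were called higher and 1 lower, with sums of 4.40 to 9.39 CPM and 20.9 to 28.0 CPM, with *Cxcr2* the most abundant, while *Elane* had fewer than 10 counts in all. Of 5 T cell genes 2 were called lower and 1 higher, with sums of 24.1 to 33.3 CPM and 4.74 to 10.0 CPM, and *Cd3g* was the most abundant.

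Of 6 fibroblast genes 2 were called lower, with *Col3a1* the most abundant and sums of 2928 to 10540 CPM against 1948 to 3781 CPM. Of 5 muscle genes 4 were called lower, led by *Acta1*, with sums of 3091 to 4185 CPM and 694.9 to 1180.0 CPM. Of 6 erythroid genes 4 were called higher, led by *Hba-a1*, with sums of 101.9 to 270.1 CPM and 125.9 to 659.2 CPM. Of the male germ cell genes, *Prm1* and *Acrv1* had fewer than 10 counts in all, and *Ddx4* was called higher at sums for the list of 0.0541 to 0.107 CPM and 0.24 to 0.719 CPM.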

How the data were processed

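Bulk RNA-Seq of mouse skin was analysed from the table of 17943 genes. Per the labels, the submitters' notes name HISAT, Bowtie2 2.3.4.3, RSEM 1.3.1, DESeq2 1.4.5 and the build mm10. The authors deposited estimated counts per gene from RSEM, not normalized between mice, and TPM for 6 of the 9 libraries. The annotation release is not given in the sources used here. Of the gene IDs, 17917 matched RefSeq (GRCm38.p6). Transcript lengths, exons and sequences past the stop came from GENCODE M21.

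About 9.0% of the estimated counts were not whole, and all were rounded for testing. Genes with a sum of at least 10 counts were fitted with edgeR 4.0.16 in R 4.3.3 (TMM, quasi-likelihood test of *Supt6*-KO against control, no covariates, Benjamini-Hochberg adjustment over 16426 genes). Calls needed an adjusted p under 0.05 and a 2-fold change. The standard error is the log2 fold change divided by the square root of F. CPM used TMM-scaled library sizes, and depth was 29627341 to 30967107 counts per mouse. The p-values measure the spread between these mice. The scripts' tests were tried on simulated data.

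Alternatives were DESeq2 1.42.0, other scalings and filters, fits with a length correction or with the replicate number as a block, glmTreat at 2-fold and leaving out each mouse. Shared 100-base stretches were counted between annotated member transcripts. Named genes were, in each class, the 3 members with the highest mean in either group, the 3 called members with the largest change in each direction, *Supt6*, fixed genes of histone mRNA processing, variants and the cell cycle, and the largest change of each list. *H2ac6*, *H2ac19* and groups by level, promoter or transcript end were added after the values were seen. The members and lists were chosen with earlier results of these data known. Tables came from Python 3.11.15 (pandas 2.3.3, scipy 1.17.1). One marker list is not reported here. Other data of the study were not analysed here.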

Additional observations from a re-analysis of the deposited data

Results flagged for a closer look

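Of 95 sets of mice examined among the named genes and sums, 2 held a mouse far from the rest of its group, where chance gives about 4.8. *Rrm2* was at 154.2 CPM in *Supt6*-KO mouse 4, against a group median of 51.6 CPM, and its gap to the next mouse was 0.847 of the group's range. *Ccne1* was at 38.9 CPM in the same mouse, against a group median of 13.2 CPM, with a gap of 0.914 of the range. Both are S phase genes, and no histone gene or sum among those examined had such a mouse.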

How the results depend on the processing

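The histone sums stayed higher in *Supt6*-KO mice under every scaling and with each mouse left out. With library totals, where the median of all genes moved from -0.07 to -0.76, the log2 ratios were 1.00 for all members, 0.90 for H1, 0.64 for H2A, 1.12 for H2B, 1.18 for H3 and 1.81 for H4. Between 34 and 50 members were called higher under all alternatives but a minimum of 10 counts in each of the mice, which left 8 members and called 6 of them. No alternative called a member lower. Leaving out each mouse gave 38 to 47, lowest without *Supt6*-KO mouse 4. Over all genes, library totals gave 1469 higher and 6801 lower in place of 3427 and 4088, glmTreat at 2-fold gave 2271 higher, and no fold limit gave 5607 higher.

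For the related lists, library totals gave a median of 0.435 for variants with 2 genes lower, -0.214 for histone mRNA processing with 0 higher, -0.023 for S phase with 7 higher and 4 lower, and -0.654 for chaperones with 0 higher and 6 lower. With no fold limit, 11 processing genes were higher, 2 variant, 3 S phase and 6 chaperone genes were lower. With glmTreat, 0 processing genes and 2 chaperones were higher and 1 chaperone was lower. Upper-quartile factors, the minimum in each mouse and both length corrections each called 1 S phase gene lower. The length correction raised the processing median to 0.655 and, with the block, left 1 chaperone lower. Leaving out each mouse gave 0 to 2 S phase genes lower, and medians of 0.258 to 0.512 for processing, 0.187 to 0.704 for S phase, 0.925 to 2.046 for mitosis and -0.295 to 0.105 for chaperones. The low end of each of these medians was without *Supt6*-KO mouse 4, which also gave the 2 S phase genes lower. The causes were not tested.

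*Supt6* stayed lower throughout, but was under the fold limit with the length correction (-0.644) and with that correction plus the block (-0.618). Of 347 alternative values for 17 named members, 317 kept direction and call, 18 lost the call and 12 changed sign. For 25 other genes, 485 of 524 kept both, 12 lost and 18 gained a call, and 9 changed sign. The sign changes were in genes not called in either fit. Library totals gave log2 fold changes of -0.505 for *H2bc21*, -0.235 for *H3c15*, -0.636 for *H4c8*, -0.439 for *Npat*, -0.162 for *Mki67* and -0.029 for *Top2a*. The length correction gave -0.078 for *H3c15*, -0.552 for *H4c8*, 0.681 for *Casp8ap2* and 0.655 for *Lsm11*, and with the block -0.253, -0.688, 0.671 and 0.535. The block alone gave -0.092 for *H4c8*. Leaving out each mouse gave -0.241 to 1.054 for *H3c15*, -0.224 to 0.328 for *H4c8*, -0.096 to 0.739 for *Mki67* and -0.195 to 0.796 for *Top2a*, below 0 without *Supt6*-KO mouse 4 in all of these but *H4c8*. Replicate numbers are shared by the groups, but same-numbered mice did not deviate together (mean r 0.079 over 4 pairs, -0.009 to 0.159, against -0.016 over 16 others), so the numbers were not taken to pair the mice. With the replicate number as a block, 41 members were called higher, where 3134 of all 16426 genes tested were called higher and 3834 lower. Members at a few counts per library limit what the depth can show.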
